A study of Mus musculus with 6 samples.

Results

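The F-box genes are the 80 symbols of the deposited table that begin with Fbxl, Fbxo or Fbxw and a number, of 54532 genes listed. By these prefixes 19 are Fbxl, 37 Fbxo and 24 Fbxw genes, and no symbol ending in -ps had to be left out. One of the 80, Fbxl12os, is named in the file as an opposite-strand gene of Fbxl12 and is counted here only because its symbol matches. Their transcripts were measured by poly(A) RNA sequencing of splenic CD4+ T cells from wild type C57BL/6J mice, all given dextran sulfate sodium (DSS) in the drinking water to induce colitis. The mice received Akkermansia muciniphila, a mucin-degrading gut bacterium, every day (3 libraries, Akkermansia 1 to 3), or phosphate-buffered saline as control (3 libraries, PBS 1 to 3). The series describes 3 biological replicates per group. Age, sex and dose, and whether a library came from 1 mouse or from pooled mice, are not stated in the labels. There were no mice without DSS among the libraries.

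F-box proteins are the exchangeable substrate receptors of SCF ubiquitin ligases. The F-box binds SKP1, SKP1 binds the scaffold CUL1, and RBX1 on the other end of CUL1 brings in the ubiquitin-conjugating enzyme. The rest of the F-box protein selects the substrate: through leucine-rich repeats in FBXL proteins, through WD40 repeats in FBXW proteins, and through other or no known domains in FBXO proteins. In lymphocytes the family is known for setting the stability of cell cycle inhibitors, MYC, NOTCH1, BCL6 and the inhibitors of NF-kB. These are effects on protein, and the libraries measure transcripts of the adaptors only.

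Libraries held 15032257 to 16677923 counts. Of 10 CD4 T cell markers 4 were higher and 2 lower with Akkermansia, summed at 4705 to 5029 CPM (counts scaled to library size) against 4619 to 4907 CPM with PBS. Cd4 averaged 884 ± 29.5 CPM with Akkermansia against 688 ± 32.3 CPM with PBS (SD, n = 3 each), and Cd3e 332 ± 5.84 against 282 ± 16.3 CPM. The markers that were lower were Cd28 (325 ± 32.9 against 595 ± 96.9 CPM, edgeR adjusted p = 0.00158) and Il7r (496 ± 61.6 against 717 ± 111 CPM, 0.0161). The cell type entry names CD4+ cells for all 6 libraries, whereas the descriptions of the libraries numbered 2 and 3 name CD5 and CD6. Markers of some other cells moved with the groups: all 12 B cell markers were higher with Akkermansia, summed at 1240 to 1399 CPM against 861 to 891 CPM with PBS. Both CD8 T cell markers were higher as well (61.3 to 93.4 against 19.1 to 20.2 CPM), as were 5 of 9 NK cell markers (83.2 to 102 against 62.0 to 75.5 CPM) and 3 of 7 tested dendritic cell markers (51.4 to 63.8 against 24.4 to 38.0 CPM). For the counts of each list, 7.27% of all tested genes were called higher and 8.2% lower. The monocyte and macrophage list had 1 of 10 higher, with a median log2 fold change of 0.08. Its sum was 567 to 612 CPM with Akkermansia against 462 to 550 CPM with PBS. The neutrophil list had 1 of 7 tested higher (80.6 to 180 against 13.7 to 59.6 CPM) and the erythroid list 1 of 8 lower (212 to 370 against 421 to 961 CPM). The plasma cell list had 2 of 6 tested lower, Prdm1 and Xbp1, with a higher sum (581 to 743 against 223 to 357 CPM). Its largest difference in CPM was that of Igha, which was not called (edgeR adjusted p = 0.057). Igha had 461 ± 75.0 CPM with Akkermansia against 112 ± 55.8 CPM with PBS (SD, n = 3 each). No listed marker was at 0 in all 6 libraries. The part of these cells in the F-box values was not tested, and in bulk libraries fewer cells of a type and less RNA per cell cannot be told apart.

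In CD4+ T cell libraries 3 F-box genes rose with Akkermansia and 6 fell, of 55 that could be tested. Fbxo33 moved most among them, to 118 ± 2.49 CPM with Akkermansia against 229 ± 18.3 CPM with PBS (SD, n = 3 each). Fbxo46 and Fbxl8 rose by 0.62 and 0.54 on the log2 scale, and the other 6 changes were at most 0.41 in size. Tests used edgeR's quasi-likelihood test with Benjamini-Hochberg adjustment over the 15274 genes with at least 10 counts in at least 3 libraries, and a gene was called where the adjusted p was under 0.05. In that fit 15.5% of all tested genes were called, 7.27% higher and 8.2% lower, so that 9 of 55 F-box genes (16.4%) is close to the background. The median log2 fold change of the 55 was 0.02, against -0.01 for all tested genes. The medians of their absolute changes were 0.17 and 0.22.

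**Figure D1:**
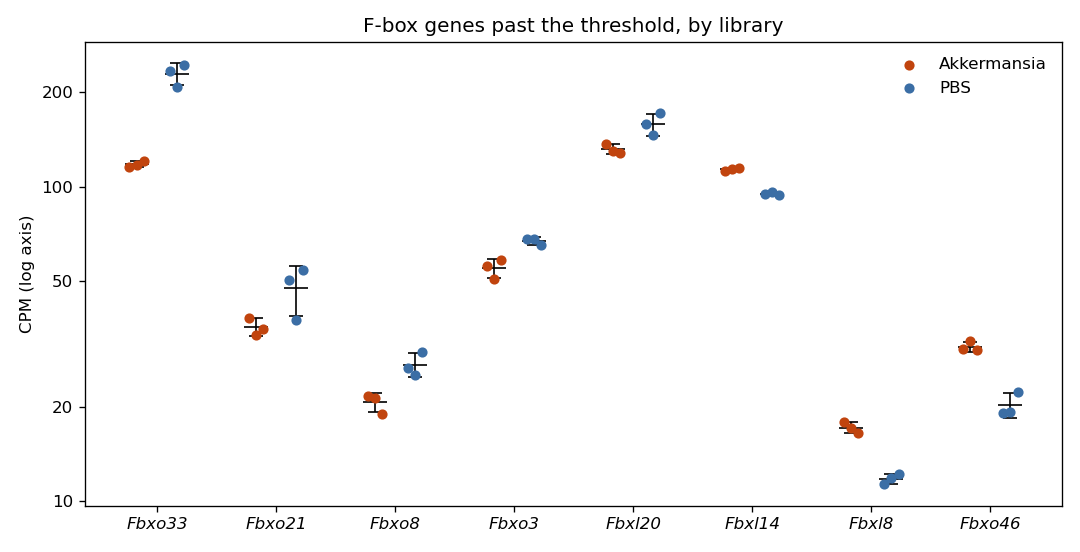
Each point is the CPM (log axis) of 1 library for 8 of the 9 F-box genes with an adjusted p under 0.05, Akkermansia left of PBS, with bars at the mean and ± SD (n = 3). The 3 Akkermansia points lie apart from the 3 PBS points in each gene drawn but Fbxo21, where an Akkermansia library reached 38.4 CPM and a PBS library lay at 37.8 CPM.

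Fbxo33, whose human protein binds the cold-shock factor YB-1, had 116, 117 and 121 CPM in the Akkermansia libraries and 234, 209 and 244 CPM in the PBS libraries. The Akkermansia libraries lay within 5 CPM of each other, and all 3 were well under the lowest PBS library. The log2 fold change was -0.96 ± 0.07 (SE, edgeR adjusted p = 1.39e-05), a 1.94-fold lower level. By p-value Fbxo33 was number 9 of 15274 tested genes, and by size number 269 of 1252 genes called lower. Among F-box genes it had the highest level per length in PBS libraries, 50.9 ± 3.74 FPKM (fragments scaled for gene length and library size), and fell to 26.5 ± 0.675 FPKM with Akkermansia (SD, n = 3 each). Its call held in each of the 16 alternative settings, with log2 fold changes from -1.02 to -0.91.

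Fbxo46 rose and was the only other F-box gene called in every setting, with values from 0.52 to 0.69. Its libraries had 30.4, 32.2 and 30.3 CPM with Akkermansia against 19.1, 19.2 and 22.3 CPM with PBS, without overlap. The log2 fold change was 0.62 ± 0.11 (SE, edgeR adjusted p = 0.00214), a 1.53-fold higher level. In the GENCODE M21 annotation (GRCm38), 9.54% of its exon bases are shared with Qpctl on the other strand. Qpctl had 16.6 ± 0.132 CPM with Akkermansia against 18.6 ± 1.65 CPM with PBS (SD, n = 3 each, log2 fold change -0.16, edgeR adjusted p = 0.392). Qpctl was not called, and whether its reads entered the Fbxo46 counts was not tested.

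The 250 bases before the RefSeq start sites of these genes (GRCm38.p6) are shown because their calls were the ones that held in all settings. Capitals mark CpG dinucleotides, of which the Fbxo33 stretch, chr12:59219484-59219733 on the minus strand, holds 31, and the Fbxo46 stretch, chr7:19119609-19119858 on the plus strand, holds 12.
Fbxo33: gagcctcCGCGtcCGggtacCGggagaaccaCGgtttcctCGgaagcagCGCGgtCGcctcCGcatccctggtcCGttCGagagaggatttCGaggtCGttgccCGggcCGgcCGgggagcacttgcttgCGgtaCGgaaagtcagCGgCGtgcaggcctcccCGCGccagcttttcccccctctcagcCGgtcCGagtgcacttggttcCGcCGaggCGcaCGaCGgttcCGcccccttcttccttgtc
Fbxo46: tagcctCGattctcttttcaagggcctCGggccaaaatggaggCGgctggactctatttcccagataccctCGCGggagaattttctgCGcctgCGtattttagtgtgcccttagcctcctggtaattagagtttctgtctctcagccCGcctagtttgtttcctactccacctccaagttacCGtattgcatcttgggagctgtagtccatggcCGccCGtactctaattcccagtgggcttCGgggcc
The ratio of observed to expected CpG was 1.06 for Fbxo33 and 0.68 for Fbxo46. For 41 of the 55 tested F-box genes, with 61 start sites, the median was 0.70, and it was also 0.70 over 12922 start sites of all tested genes that the table holds. Neither of the 250-base stretches shown held a match, on either strand, to the letters TGACGTC (part of the cAMP response element), TGANTCA (AP-1), GTAAACA (FoxO), CACGTG (E-box) or CCAAT. These occur in 4.48%, 4.40%, 2.17%, 8.21% and 35.1% of the 12922 stretches. Among the other called genes with an entry, Fbxo8 held the first motif and Fbxl20 the last, Fbxo21 and Fbxl14 held none of them, and Fbxl8 and Fbxo3 had no entry.

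Of 31 tested Fbxo genes 16.1% were called, against 15.5% of all tested genes. Of the 31, 4 fell and 1 rose, with a median log2 fold change of 0.06. Besides Fbxo33 and Fbxo46 these were Fbxo21, Fbxo8 and Fbxo3, each with a fall between 0.29 and 0.41. Fbxo21, an adaptor for the stress kinase ASK1 in mouse antiviral signalling, had 38.4, 33.8 and 35.2 CPM with Akkermansia against 50.6, 37.8 and 54.2 CPM with PBS. The groups overlapped, since PBS 2 lay among the Akkermansia libraries (log2 fold change -0.41 ± 0.12, SE, edgeR adjusted p = 0.0439). Fbxo8, which carries a Sec7 domain like the activators of ARF GTPases, had 21.6, 21.4 and 18.9 CPM with Akkermansia against 26.5, 25.2 and 29.8 CPM with PBS (-0.39 ± 0.11, adjusted p = 0.0303). Fbxo3, described as an adaptor that marks the F-box protein FBXL2, had 56.0, 51.1 and 58.6 CPM with Akkermansia against 68.4, 68.5 and 65.2 CPM with PBS (-0.29 ± 0.08, adjusted p = 0.0272). Neither gene's groups overlapped. Fbxl2 itself had 2.06 CPM with Akkermansia against 1.85 CPM with PBS, on 19 to 39 counts a library, and did not pass (0.16 ± 0.35, adjusted p = 0.808). In GENCODE M21 11.2% of the Fbxl2 exon bases lie in Ubp1 on the other strand, and whether the counting used strand is not given.

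The 3 genes kept their sign in each of the 16 alternatives, with log2 fold changes from -0.55 to -0.30 for Fbxo21, from -0.44 to -0.31 for Fbxo8 and from -0.33 to -0.23 for Fbxo3, but their calls were lost in several. Leaving out single libraries ended the call of Fbxo21 and of Fbxo8 in 5 of 6 fits each (every fit but the one without PBS 2, adjusted p up to 0.159 and 0.129). Fbxo3 lost it without Akkermansia 1, Akkermansia 2 or PBS 1 (up to 0.141). None of the 3 was called in the fits on log2 FPKM with either pseudocount, and limma-voom on the counts of all 6 libraries did not call Fbxo21 (adjusted p = 0.0715).

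Of 15 tested Fbxl genes, 2 rose and 2 fell (26.7% called, against 15.5% of all tested genes), with a median of 0.02. Fbxl8, whose human protein has cyclin D3 as a substrate, had 17.9, 17 and 16.5 CPM with Akkermansia against 11.3, 11.8 and 12.2 CPM with PBS. The groups were clearly apart (log2 fold change 0.54 ± 0.12, SE, edgeR adjusted p = 0.0118), and the call was lost only without Akkermansia 1 (0.0546). Fbxl14, an adaptor for the transcriptional repressor SNAI1, had 112, 114 and 115 CPM with Akkermansia against 95.1, 96.0 and 94.4 CPM with PBS (0.26 ± 0.06, adjusted p = 0.0173). Within each group it varied by less than 4 CPM. Its call was lost without any 1 of the Akkermansia libraries or PBS 1 (adjusted p up to 0.0795), and on log2(FPKM + 1) with no filter.

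Among the Fbxl genes that fell was Fbxl20, known in mouse brain as a regulator of the synaptic protein RIM1. It had 137, 130 and 128 CPM with Akkermansia against 158, 146 and 171 CPM with PBS (log2 fold change -0.26 ± 0.07, SE, edgeR adjusted p = 0.0297). Every Akkermansia library lay under every PBS library. Fbxl20 was not called in any fit without 1 library but that without PBS 2 (adjusted p up to 0.127), nor in the fits on log2 FPKM (up to 0.172). Fbxl21 had 3 to 16 counts a library and was not tested.

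No Fbxw gene was called among 9 tested (edgeR, 2 with an unadjusted p under 0.05, and 0 called by DESeq2 or limma-voom). Over all tested genes 15.5% were called. The median log2 fold change of the 9 Fbxw genes was -0.13, and 7 of 9 were below 0. Fbxw7, the adaptor for MYC, NOTCH1 and cyclin E, had 43.1, 47.0 and 43.9 CPM with Akkermansia against 57.6, 39.4 and 53.0 CPM with PBS. PBS 2 was the lowest of all 6 libraries and PBS 1 the highest (-0.16 ± 0.12, SE, edgeR adjusted p = 0.414). Without PBS 2 Fbxw7 was called lower (-0.31, adjusted p = 0.029), and without PBS 1 its value was -0.06. Fbxw11, a close relative of Btrc that recognises phosphorylated IkB alpha and beta-catenin, had 91.1, 86.4 and 86.6 CPM with Akkermansia against 96.5, 93.2 and 100.3 CPM with PBS, without overlap (-0.13 ± 0.07, adjusted p = 0.209). Fbxw9 had 5.80 ± 1.14 CPM with Akkermansia against 8.47 ± 0.478 CPM with PBS (SD, n = 3 each), and Fbxw2 95.7 ± 7.01 and 107 ± 2.12 CPM. Both were at an unadjusted p under 0.05 and did not pass after adjustment (edgeR, 0.0728 and 0.14).

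**Figure D2:**
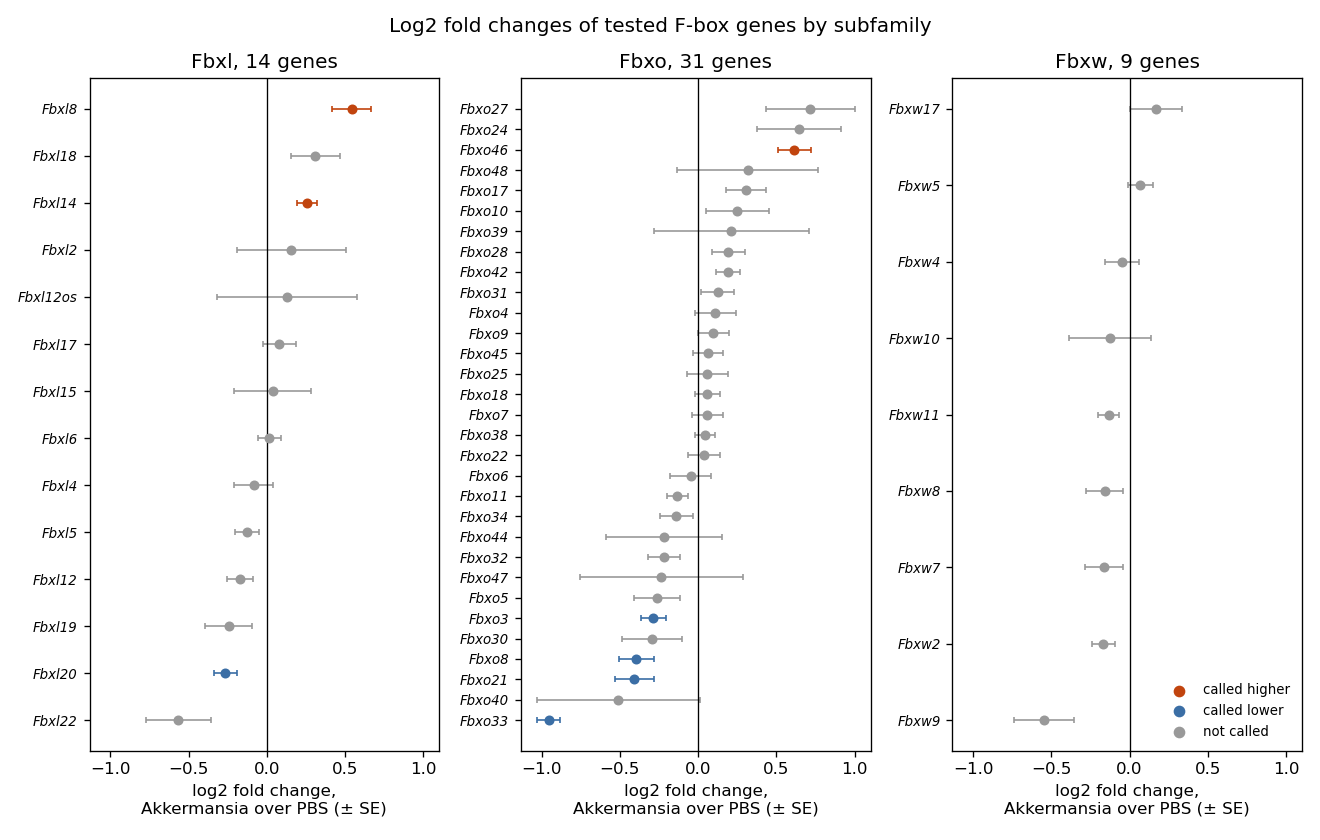
Log2 fold changes (Akkermansia over PBS) with their SE are drawn for 14 of the 15 Fbxl, the 31 Fbxo and the 9 Fbxw genes tested, sorted within each subfamily. Called genes lie on both sides of 0 in Fbxl and Fbxo, and Fbxo33 lies at -0.96, apart from the others.

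Several F-box genes with known roles in lymphocytes or growth control did not pass. Fbxo11, the adaptor that marks BCL6, had 132, 129 and 129 CPM with Akkermansia against 151, 139 and 138 CPM with PBS (log2 fold change -0.13 ± 0.07, SE, edgeR adjusted p = 0.2). Fbxo38, the adaptor described for the inhibitory receptor PD-1, had 112, 108 and 113 CPM with Akkermansia against 108, 106 and 108 CPM with PBS (0.04 ± 0.06, adjusted p = 0.72). The groups did not overlap for Fbxo11 and overlapped for Fbxo38. Fbxo32, the atrophy-linked adaptor that FoxO factors induce in muscle, had 28.2 ± 2.22 CPM with Akkermansia against 32.8 ± 2.88 CPM with PBS (SD, n = 3 each, adjusted p = 0.179). Fbxl12, which acts on p27 in mouse thymocytes, had 69.9 ± 5.65 and 78.6 ± 5.70 CPM (adjusted p = 0.193). In GENCODE M21 37.1% of the Fbxl12 exon bases lie in Ubl5 on the other strand, and whether the counting used strand is not given.

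The remaining members listed for their roles did not pass either. Fbxl5, an iron sensor that controls IRP2, had 90.8 ± 7.67 CPM with Akkermansia against 99.0 ± 3.58 CPM with PBS (SD, n = 3 each). Fbxo5, the APC/C inhibitor EMI1, had 13.8 ± 2.21 and 16.6 ± 1.62 CPM. Fbxo7, which binds the proteasome inhibitor PI31, had 42.6 ± 3.81 and 40.9 ± 3.87 CPM, and Fbxo10, an adaptor for BCL2 in human lymphoma cells, had 9.18 ± 1.39 and 7.72 ± 1.77 CPM. The groups overlapped in each of these 4 genes (edgeR adjusted p from 0.251 to 0.748).

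Besides Fbxw9 and Fbxw2, 5 other members had an unadjusted p under 0.05 without passing. Fbxo27 and Fbxo17, from the group of FBXO proteins that recognise sugar chains on glycoproteins, had log2 fold changes of 0.72 ± 0.28 and 0.30 ± 0.13 (SE, edgeR adjusted p = 0.108 and 0.128). Fbxo27 had 3.16 ± 0.286 CPM with Akkermansia against 1.92 ± 0.356 CPM with PBS (SD, n = 3 each). Fbxo24, Fbxo42 and Fbxl22 had log2 fold changes of 0.64, 0.19 and -0.57 (adjusted p = 0.124, 0.107 and 0.0931). Fbxl22 was called lower by DESeq2 and by edgeR with no filter on low counts. It had 16, 13.1 and 10.6 CPM with Akkermansia against 21.5, 13.9 and 23.3 CPM with PBS, so that PBS 2 again lay near the Akkermansia libraries. In all, the groups did not overlap in 19 of 55 F-box genes (34.5%), against 34.8% of all tested genes.

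By the median over the genes that fell, PBS 2 stood nearer to the Akkermansia libraries than PBS 1 and PBS 3 did. By the median over those that rose, PBS 3 stood nearest. Single genes differed: PBS 3 was nearest in Fbxo3 (65.2 CPM), which fell, and PBS 2 in Fbxl14 (96.0 CPM), which rose. Over the 6 F-box genes that fell, the median log2 level relative to each gene's mean was -0.12, -0.21 and -0.19 in Akkermansia 1, 2 and 3, and 0.18, 0.06 and 0.29 in PBS 1, 2 and 3. Over the 3 that rose it was 0.28, 0.25 and 0.21 in the Akkermansia libraries, and -0.32, -0.25 and -0.16 in the PBS libraries. Without PBS 2, 4 F-box genes were called higher and 8 lower, with Fbxo28 added to the rises and Fbxw7 and Fbxl22 to the falls. In fits without Akkermansia 1, 2, 3, PBS 1 or PBS 3 the calls numbered 2, 3, 4, 3 and 6. Calls over all 15274 tested genes varied in these fits as well. Without PBS 2 they numbered 1166 higher and 1404 lower, against 1110 and 1252 in the main fit. In the other fits, in the same order, 633, 519, 526, 681 and 1284 genes were higher, and 809, 637, 650, 807 and 1246 lower.

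**Figure D3:**
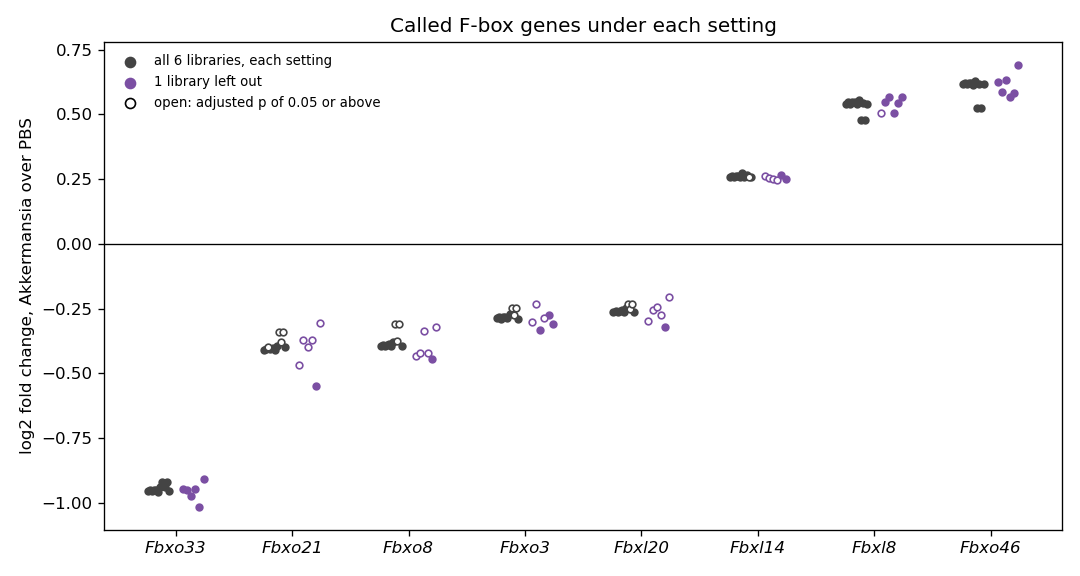
Each point is the log2 fold change (Akkermansia over PBS) of 1 of 8 called F-box genes in 1 setting, grey with all 6 libraries and violet with 1 library left out, and open points have an adjusted p of 0.05 or above. All 8 kept their sign in each of the 16 alternatives, but only Fbxo33 and Fbxo46 have no open point.

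The summed level of all 80 F-box genes was 2239, 2168 and 2221 CPM with Akkermansia against 2438, 2283 and 2493 CPM with PBS. The groups did not overlap, and the means differed by -195 CPM. Fbxo33 alone accounted for -111 CPM of this, and made up 5.34% of the family's CPM with Akkermansia and 9.52% with PBS. Without Fbxo33 the sums were 2123, 2051 and 2100 CPM with Akkermansia against 2204, 2075 and 2249 CPM with PBS, and the groups overlapped.

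Per length, the 55 tested genes had mean levels over the 6 libraries from 0.113 FPKM (Fbxo40) to 38.7 FPKM (Fbxo33), with medians of 6.86, 6.09 and 6.70 FPKM in Fbxl, Fbxo and Fbxw. Other abundant members were Fbxl14 (35.2 FPKM) and Fbxo11 (32.8), followed by Fbxl6 (27.8), Fbxo38 (24.8), Fbxw5 (22.3) and Fbxw11 (21.3). The order of Fbxl14, Fbxo11 and Fbxo33 changed with the group. With Akkermansia Fbxl14 (38.4 ± 0.640 FPKM) stood above Fbxo11 (31.4 ± 0.348) and Fbxo33 (26.5 ± 0.675), whereas with PBS Fbxo33 (50.9 ± 3.74 FPKM) stood above Fbxo11 (34.2 ± 1.55) and Fbxl14 (31.9 ± 0.486, SD, n = 3 each). Fbxo11 and Fbxl14 differed with PBS by little more than the sum of their SDs. The other members named for their level did not pass: Fbxl6 (log2 fold change 0.02), Fbxo22 (0.04), Fbxo9 (0.10), Fbxw5 (0.07) and Fbxw4 (-0.05).

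**Figure D4:**
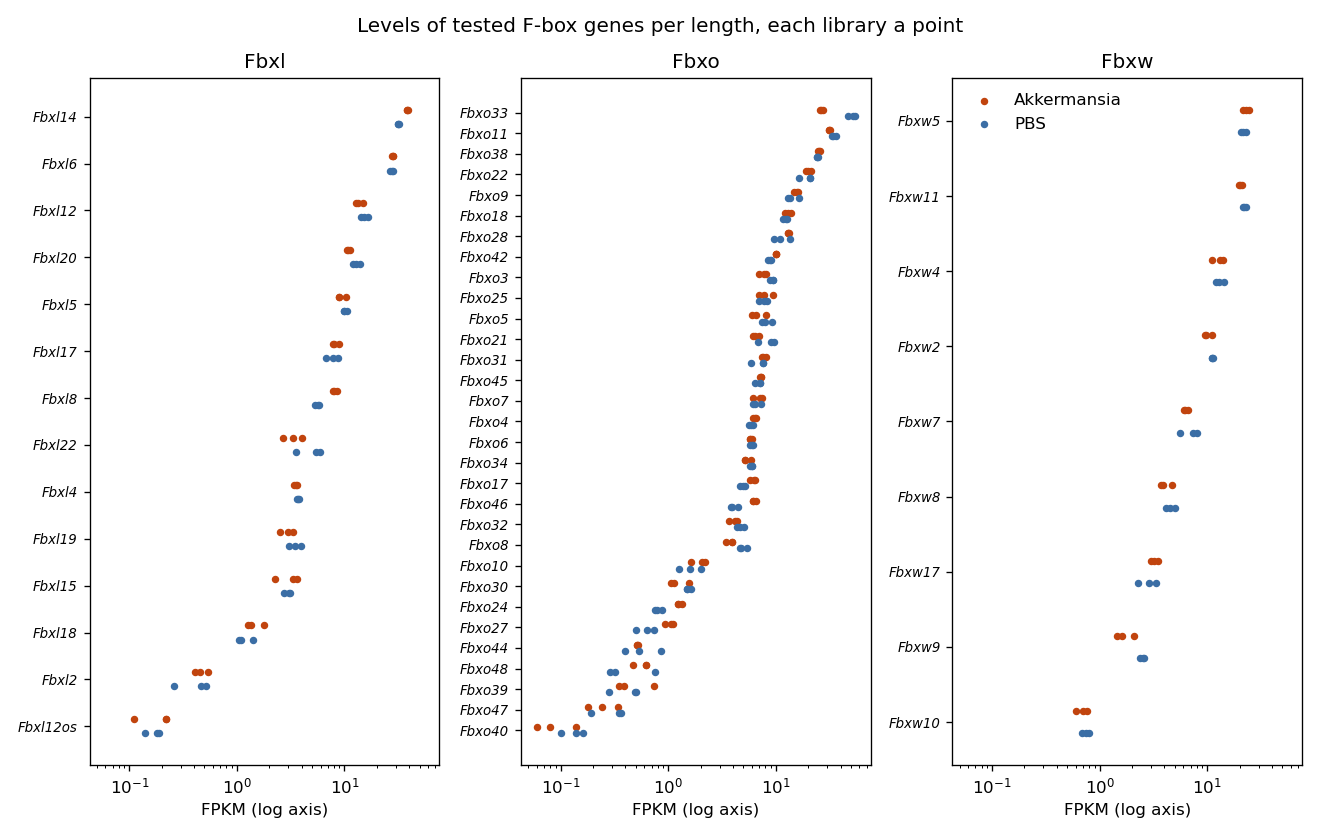
FPKM (log axis) of 54 of the 55 tested F-box genes, with Akkermansia libraries as the upper and PBS libraries as the lower points of each row, sorted by mean level. Levels run from 0.113 to 38.7 FPKM on average, and Fbxo33 heads the Fbxo genes with its groups well apart.

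Not tested were 25 F-box genes. Of these 13, all Fbxw genes, had no count in any library, and 12 had counts of at most 18 in a library. All 55 tested members reached 10 counts in libraries of both groups, and 51 did so in all 6. Fbxo36, named here after its values were seen, had 5, 1 and 1 counts with Akkermansia, against 10, 12 and 8 with PBS. With no filter on low counts it did not pass (edgeR adjusted p = 0.155). In GENCODE M21, 19 of the 55 tested genes share exon bases with another gene, 7 of them over 10% of their own.

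The partners of F-box proteins were described from 4 lists. For comparison, 8.2% of all tested genes were called lower and 7.27% higher. Of 11 tested SCF core genes, covering the scaffold, the SKP1 and RING subunits and the ubiquitin-conjugating enzymes, 1 fell and none rose, with a median log2 fold change of -0.15. The fall was that of Skp1a, the subunit that F-box proteins bind, with 111, 127 and 119 CPM with Akkermansia against 143, 135 and 150 CPM with PBS (-0.26 ± 0.07, SE, edgeR adjusted p = 0.0298). Its groups did not overlap, but the call was lost in each fit without 1 library except that without PBS 2, and in the 3 fits on log2 FPKM (0.0701 on log2(FPKM + 1)). Cul1, the scaffold, had 99.5, 101 and 101 CPM with Akkermansia against 110, 118 and 113 CPM with PBS (-0.18 ± 0.07, adjusted p = 0.0896). Rbx1, the RING subunit, had 51.7 ± 1.98 and 56.7 ± 9.30 CPM (SD, n = 3 each, adjusted p = 0.45).

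COP9 signalosome subunits had 3 falls and no rise in 10 tested genes, with a median of -0.17. Of all tested genes 8.2% were called lower, and the list was not tested as a set. The COP9 complex removes NEDD8 from cullins and so allows the F-box subunit to be exchanged. Cops2 had 59.6, 60.2 and 60.7 CPM with Akkermansia against 80.2, 84.9 and 79.6 CPM with PBS (log2 fold change -0.44 ± 0.07, SE, edgeR adjusted p = 0.00147), and was called in each of the 16 alternatives. Cops3 fell by 0.35 (adjusted p = 0.0221) and Cops8 by 0.31 (adjusted p = 0.0226), while Cops5, the catalytic subunit, had -0.26 (0.0697). Cops3 was not called without Akkermansia 1, Akkermansia 3 or PBS 1, nor on log2(FPKM + 1) with no filter (adjusted p up to 0.104). Cops8 was not called without Akkermansia 2 or Akkermansia 3, nor in any of the 3 fits on log2 FPKM (up to 0.173).

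The NEDD8 cycle list, which holds the enzymes that attach NEDD8 and the exchange factors CAND1 and CAND2, had 1 fall and no rise in 14 tested genes, with a median of -0.04. The fall was that of Dcun1d5, a cofactor of cullin neddylation, at 49.5 ± 2.03 CPM with Akkermansia against 61.1 ± 2.47 CPM with PBS (SD, n = 3 each, edgeR adjusted p = 0.0198, and not called without Akkermansia 2 or 3 or on log2(FPKM + 1) with no filter). Of 6 tested F-box genes with other names none was called (edgeR adjusted p from 0.0568 to 0.872). Btrc, the close relative of Fbxw11 that also recognises IkB alpha, had 21.9, 20.8 and 17.4 CPM with Akkermansia against 26.3, 26.9 and 24.0 CPM with PBS, without overlap (-0.36 ± 0.12, adjusted p = 0.0568). Skp2, the adaptor for p27, had 5.28 ± 1.33 and 7.24 ± 1.25 CPM, and Ccnf, cyclin F, 4.96 ± 1.63 and 5.34 ± 1.54 CPM.

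**Figure D5:**
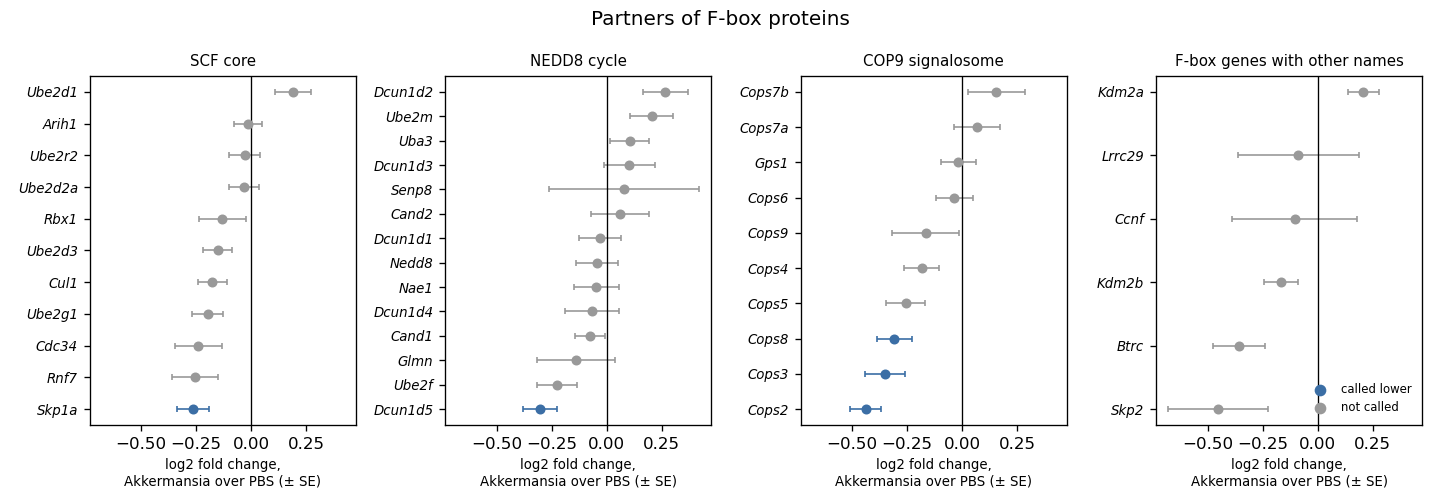
Log2 fold changes (Akkermansia over PBS) with their SE for the tested genes of the SCF core, the NEDD8 cycle, the COP9 signalosome and F-box genes with other names. The 5 called genes are all lower with Akkermansia, from -0.44 for Cops2 to -0.26 for Skp1a. Of all tested genes 8.2% were called lower.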

How the data were processed

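Gene counts and FPKM values of 6 libraries (3 per group) were used. Per the file headers and values, the authors' 2 tables hold unnormalised counts (whole numbers, 1 row per gene) and deposited FPKM values rounded to 2 decimals. Per the submitters' processing notes the genome was GRCm39. No source used here names the aligner, counter, annotation or strandedness. Genes with at least 10 counts in at least 3 libraries were tested (15274) with edgeR 4.0.16 in R 4.3.3: TMM scaling, robust quasi-likelihood F test, two-sided, no covariate, Benjamini-Hochberg adjustment. The fit was tested on simulated data. CPM values use the TMM factors, and 3 counts correspond to 0.181 to 0.2 CPM. P-values rest on the spread between libraries, fitted with the same dispersion for both groups. Averaged over genes, replicate pairs varied by 4.45 to 6.13 times the sampling variance with Akkermansia and by 14.7 to 19.7 times with PBS. Lists were described by counts and medians, without a list test. The members and lists were chosen with earlier results of these data known. Genes named were every called member, the 5 members with the highest mean FPKM in each subfamily, members with known roles, and called partners; others were chosen after their values were seen. Alternatives were DESeq2 1.42.0, limma-voom and limma-trend on FPKM (limma 3.58.1), other scalings and filters, a fit with replicate as block, and fits without each library in turn. Fbh1 on the list of F-box genes with other names is Fbxo18 in the table and was counted as a member. Promoter sequences are from RefSeq (GRCm38.p6), matched by symbol. The values of 1 called Fbxl gene, which is in all counts, medians and sums, are not reported here.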

Additional observations from a re-analysis of the deposited data

How the results depend on the processing

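All 9 called F-box genes kept their sign in the 16 alternatives, and Fbxo33 and Fbxo46 kept their call. With limma-trend on log2(FPKM + 1), on log2(FPKM + 0.1) and on log2(FPKM + 1) with no filter, F-box genes called lower numbered 1, 1 and 1, Fbxo 1, 1 and 1, Fbxl 0, 0 and 0, and SCF core genes 0, 0 and 0. The last of these settings called 256 of all genes higher and 308 lower, 1 Fbxl gene higher, 0 NEDD8 cycle genes lower and 1 COP9 gene lower, and log2(FPKM + 0.1) called 827 of all genes lower. With no filter on low counts 1 F-box gene with another name was called higher. With 1 library left out, all genes called numbered 519 to 1284 higher and 637 to 1404 lower, F-box genes 1 to 4 higher and 1 to 8 lower, Fbxl 0 to 2 and 0 to 3, Fbxo 1 to 2 and 1 to 4, and Fbxw 0 to 0 and 0 to 1. Lower calls then numbered 0 to 1 in the SCF core, 0 to 1 in the NEDD8 cycle and 1 to 3 in the COP9 list, and F-box genes with other names had 0 to 1 higher and 0 to 1 lower. The sign of uncalled genes turned in some of these fits, with ranges of -0.30 to 0.15 for Ccnf, -0.011 to 0.037 for Fbxl6, -0.073 to 0.10 for Fbxo22, -0.13 to 0.046 for Fbxw4 and -0.23 to 0.0058 for Rbx1. Calls of F-box genes were lost with fewer libraries or on FPKM values, and that of Fbxo21 also by limma-voom on all counts; the cause was not tested. Same-numbered libraries deviated together with correlations of 0.12, 0.11 and 0.04, and differently numbered ones with -0.11 to 0.013. The main fit did not take the numbers as pairs, and whether they mark pairs was not tested. With a replicate block 1210 genes were higher and 1333 lower, against 1110 and 1252 in the main fit. With the block 3 F-box genes were higher and 6 lower, and 1 F-box gene with another name, Btrc, was called lower. Depth limits the genes under 1 FPKM, of which 9 were tested, with SE of up to 0.52.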
